A study of Homo sapiens with 4 samples.

Results

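The 48 genes described here act in mitosis and on the spindle. They include cyclins and their kinase, the kinases and checkpoint proteins that time division, kinetochore and centromere proteins, spindle motors, and proteins of cytokinesis. They are a list of gene symbols, all 48 of which were found among the 62893 Ensembl genes of the count tables and passed the filter on low counts. Reads were counted in RNA of Hep-G2 cells, a human hepatoma line, that carried an shRNA against FTO (TRCN0000246247, called shFTO here) or the control shRNA SHC002, which the design text calls a scramble. FTO is an enzyme that removes methyl groups from adenosine in RNA, and the study set knockdown cells against control cells. Each group has 2 count tables, all of cells at passage 21, so the knockdown rests on 1 hairpin in 1 cell line, and whether the cells were clones or pools is not given in the sources used here.

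As background, a cell enters mitosis when the kinase CDK1, bound to A and B cyclins, is freed of its inhibitory phosphates by CDC25 phosphatases. Aurora and Polo-like kinases then build the spindle, kinetochores tie chromosomes to microtubules, and a checkpoint holds back the anaphase-promoting complex until all chromosomes are attached. Many of these genes are transcribed late in the cell cycle, through promoters with CCAAT boxes and an element called the cell cycle genes homology region (CHR), which the MuvB complex binds together with B-MYB and FOXM1 or, as the repressive DREAM complex, together with E2F4 and an RB-like protein.

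Gene-assigned reads came to 20220271 and 20706611 in shFTO tables and 20047409 and 20474554 in scramble tables, with 262 to 16066 reads for each of the 48 genes in each table. The tables of a group did not differ beyond sampling noise. Over the 48 genes the chi-square per degree of freedom was 1.01 between the shFTO tables (chi-square test, p = 0.447) and 0.89 between the scramble tables (p = 0.687). The same chi-square test over all genes with at least 20 summed reads gave 1.01 between the shFTO tables over 13674 genes (p = 0.142). The chi-square test gave 1.02 between the scramble tables over 13359 genes (p = 0.0648). Tables of different groups gave 118 to 120. Each group was therefore counted as 1 sample, with its tables pooled, and the comparison has no replicate check and no p-value. FTO itself had 116 and 128 reads in shFTO tables, against 594 and 550 reads in scramble tables, and was 5.32-fold lower in shFTO (95% counting interval 4.63 to 6.13). The 12 hepatocyte markers were all detected, with summed levels of 18501 and 18434 CPM (a gene's reads scaled to a common library size) in shFTO tables, against 44482 and 44420 CPM in scramble tables. The leukocyte markers PTPRC and CD3E, the endothelial markers PECAM1 and KDR and the fibroblast markers COL3A1, DCN, LUM and THY1 had no read in any table. The 7 immune markers summed to 236 and 235 CPM in shFTO tables, against 3004 and 3010 CPM in scramble tables, of which lysozyme (LYZ) made up 232 and 232 CPM in shFTO tables, against 2998 and 3005 CPM in scramble tables. The 9 fibroblast markers summed to 43.7 and 39.6 CPM in shFTO tables, against 56.7 and 54.95 CPM in scramble tables. Genes of the mitochondrial genome took 2.04% of reads in shFTO tables and 1.31% in scramble tables. The part of these library differences in the results was not tested. In bulk RNA, fewer cells in mitosis and less of a transcript per cell cannot be told apart.

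Levels of the 48 transcripts differed little between the groups. Their summed level was 5671 and 5675 CPM in shFTO tables, against 5917 and 5910 CPM in scramble tables, all CPM being scaled by TMM, a method that evens out the bulk of genes between libraries. Without this scaling the 48 genes took 0.601% and 0.602% of all reads in shFTO tables, against 0.558% and 0.558% in scramble tables. Which group had the higher sum thus depended on the scaling. A gene was counted as higher where its pooled level in shFTO was at least 25% above scramble, and as lower where it was at least 20% below, which is the same fold. By this fold threshold 2 of the 48 genes (4.17%) were higher in shFTO, against 22.8% of all 13767 genes with enough reads. A further 11 of the 48 (22.9%) were lower, near the 24.0% of all tested genes, so the number of lower genes is not a result about these genes. Among the 7918 tested genes whose mean level lay in the range of the members, 16.8% were higher and 20.6% lower. None of the 48 differed by 1.5-fold in either direction, as 24.8% of all tested genes did. Of the 7918 genes in the members' range of level, 450 were higher and 751 lower by 1.5-fold. Their log2 ratios of shFTO over scramble ran from -0.53 for NUF2 to 0.47 for CENPF, with a median of -0.16, against 0.01 for all tested genes. The middle 50% of the members spanned 0.40 on the log2 scale, that of all tested genes 0.59. For the 7918 genes in the members' range of level it spanned 0.48.

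The scaling of the libraries sets the zero of these ratios. Plain library size moved all genes up by 0.17 on the log2 scale. With it 6 members were higher and 3 lower by the fold threshold, against 36.3% and 16.5% of all tested genes. Since a scaling moves every gene alike, it leaves the distance of the members' median from that of all tested genes at -0.17. All 11 lower genes stayed below scramble and both higher genes above it under TMM, DESeq2, upper quartile and plain library size scaling. The sign of 11 others differed between scalings, namely INCENP, KIF22, BUB1B, KIF2C, BUB3, ECT2, BIRC5, TPX2, PLK1, CCNB1 and SPC24, and directions given for them below hold under TMM. Under TMM the tables of the groups did not overlap for 44 of the 48 genes, 14 being higher in shFTO (41.4% of all tested genes were) and 30 lower (40.2%). Intervals below are exact 95% counting intervals of the pooled ratio and leave out differences between cultures, which these tables cannot show.

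**Figure D1:**
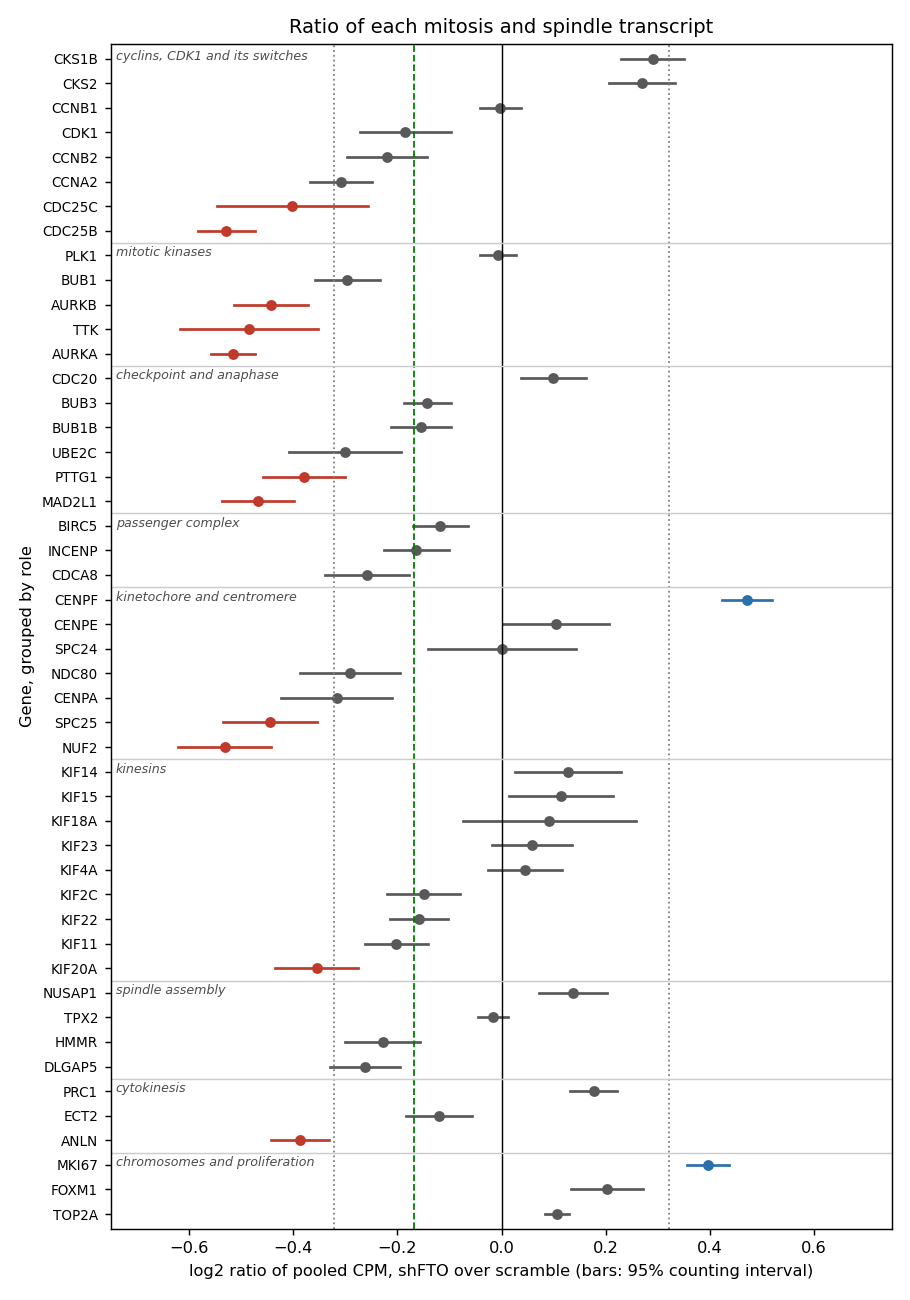
Log2 ratio of pooled CPM, shFTO over scramble (horizontal axis), for each of the 48 genes grouped by role (vertical axis). Points are ratios and bars 95% counting intervals, with lower genes in red, higher genes in blue and the rest in grey; dotted lines mark the fold threshold, and the green dashed line marks where zero would lie with plain library size. The 11 red genes lie between -0.53 and -0.35, and CENPF and MKI67 are at 0.47 and 0.40.

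**Figure D2:**
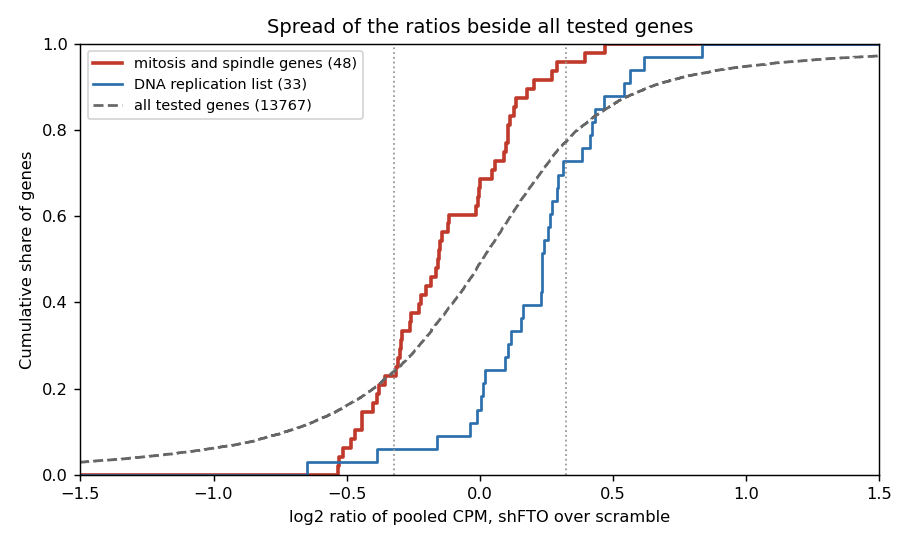
Cumulative share of genes (vertical axis) by log2 ratio of shFTO over scramble (horizontal axis) for the 48 mitosis and spindle genes, the 33 tested genes of a DNA replication list and all 13767 tested genes, with dotted lines at the fold threshold. The curve of the mitosis genes runs from -0.53 to 0.47 with a median of -0.16, and the median of the replication list is 0.23.

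Promoters were compared because these genes share a known control element. RefSeq promoters of build GRCh38.p14, from 250 bases before to 50 bases after the start site, were found for 41 of the 48 genes. The others were AURKA, BUB3, TTK, TPX2, BIRC5, UBE2C and FOXM1. The CHR letters TTTGAA or TTCGAA, on either strand, stood in 31 of the 41 windows (75.6%), against 16.4% of 34943 windows of all genes and 11.3% of 10183 windows of tested genes. CCAAT, on either strand, stood in 32 (78.05%), against 34.6% of all and 36.8% of tested genes. Both stood in 26 (63.4%), against 6.40% and 4.81%. Of 41 CHR matches, 32 began between 60 bases before and 50 bases after the start. The last 30 bases of the window were found in a transcript in the same sense for 37 of the 41 windows. They were not for CDC20, MKI67, KIF11 and PTTG1, so distances from the start are less sure for these genes. At least 2 CCAAT matches were held by 20 of the 41 windows (48.8%, against 10.8% of all windows), and in 6 windows 2 matches began 30 to 35 bases apart (14.6%, against 1.81%).

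The stretch from 150 bases before to 30 bases after the start is shown for the lowest genes with a promoter (NUF2 and CDC25B), the highest (CENPF and MKI67), the B cyclins, whose ratios differed, and the CKS genes, whose ratios differed by less than counting error. Each is written 5′ to 3′ on the strand of the gene, and capitals mark CHR or CCAAT letters on either strand.
CDC25B (chr20:3786801-3786980, + strand): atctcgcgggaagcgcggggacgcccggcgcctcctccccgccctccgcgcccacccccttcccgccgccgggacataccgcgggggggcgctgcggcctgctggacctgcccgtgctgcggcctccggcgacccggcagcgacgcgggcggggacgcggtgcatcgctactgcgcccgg
NUF2 (chr1:163321804-163321983, + strand): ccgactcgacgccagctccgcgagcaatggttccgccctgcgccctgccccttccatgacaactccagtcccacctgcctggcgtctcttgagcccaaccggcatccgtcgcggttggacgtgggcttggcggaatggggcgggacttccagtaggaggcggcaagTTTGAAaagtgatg
MKI67 (chr10:128126394-128126573, - strand): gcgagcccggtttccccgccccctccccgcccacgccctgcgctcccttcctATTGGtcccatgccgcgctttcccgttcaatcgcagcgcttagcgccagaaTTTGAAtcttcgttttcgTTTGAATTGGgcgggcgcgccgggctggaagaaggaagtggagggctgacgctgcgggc
CENPF (chr1:214603045-214603224, + strand): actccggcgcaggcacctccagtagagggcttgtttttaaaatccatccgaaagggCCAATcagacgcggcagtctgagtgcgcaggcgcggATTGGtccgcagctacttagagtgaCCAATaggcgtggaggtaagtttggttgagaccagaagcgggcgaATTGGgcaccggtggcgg
CCNB1 (chr5:69167000-69167179, + strand): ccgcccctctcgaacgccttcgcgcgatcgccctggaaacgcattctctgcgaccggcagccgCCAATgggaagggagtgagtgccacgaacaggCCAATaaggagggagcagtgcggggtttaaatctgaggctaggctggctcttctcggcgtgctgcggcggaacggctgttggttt
CCNB2 (chr15:59104996-59105175, + strand): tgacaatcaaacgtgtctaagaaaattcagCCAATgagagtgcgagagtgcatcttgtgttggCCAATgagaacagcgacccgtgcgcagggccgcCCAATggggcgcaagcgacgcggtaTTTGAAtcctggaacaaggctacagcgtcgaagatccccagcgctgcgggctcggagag
CKS1B (chr1:154974531-154974710, + strand): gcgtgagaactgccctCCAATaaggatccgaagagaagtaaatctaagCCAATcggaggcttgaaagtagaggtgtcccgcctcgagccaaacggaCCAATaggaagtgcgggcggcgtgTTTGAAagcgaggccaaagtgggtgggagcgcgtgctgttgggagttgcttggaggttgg
CKS2 (chr9:89311045-89311224, + strand): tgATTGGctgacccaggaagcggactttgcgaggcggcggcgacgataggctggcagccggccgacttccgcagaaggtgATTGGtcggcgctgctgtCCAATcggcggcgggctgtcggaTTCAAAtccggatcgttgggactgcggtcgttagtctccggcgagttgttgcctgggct
The CDC25B window held no match to the letters of either element, whereas NUF2 had a CHR match beginning at base 17 and no CCAAT. MKI67 had CHR matches that began 47 and 29 bases before the start, the second overlapping a CCAAT match by 1 base. CENPF had 4 CCAAT matches, and its CHR match began at base 41, beyond the stretch shown. CCNB1 had CCAAT matches but neither TTTGAA nor TTCGAA, while CCNB2 had matches to both elements. The CHR matches of CKS1B and CKS2 began 30 and 29 bases before the start.

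The 31 genes with a CHR match had a median log2 ratio of -0.15, with 2 higher and 4 lower by the fold threshold. The 10 without had a median of -0.33, with 0 higher and 5 lower. For CCAAT the medians were -0.14 in 32 genes with and -0.29 in 9 genes without a match. Over tested genes the medians were -0.01 in 1149 genes with and 0.01 in 9034 genes without a CHR match, with 223 higher and 296 lower of those with it and 1928 higher and 2072 lower of those without. A match describes letters in the window, not binding, and the difference between these small groups was not tested. Each gene was read in its RefSeq window alone, so a gene counted as without a match may hold the letters at another start site. Only TTTGAA and TTCGAA were searched as CHR. A gene counted as without a CHR match may therefore also hold the element in other letters within the window.

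**Figure D3:**
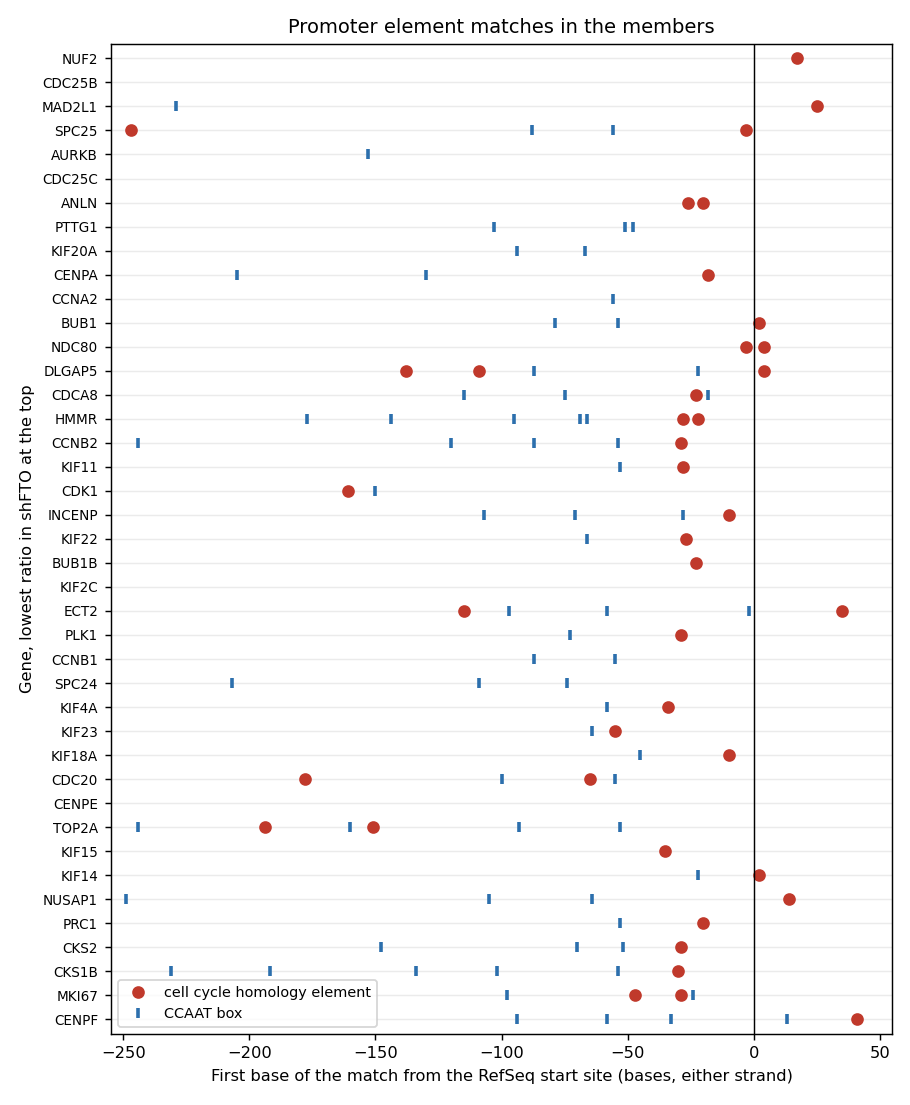
First base of each match to the CHR letters (dots) and to CCAAT (bars) by distance in bases from the RefSeq start site (horizontal axis) in the 41 genes with a promoter (vertical axis), ordered by their ratio in shFTO over scramble. Of the 41 CHR matches, 32 lie between 60 bases before and 50 bases after the start.

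Of the mitotic kinases, 3 of 5 (60.0%) were lower in shFTO by the fold threshold and 0 were higher. Over all tested genes 24.0% were lower and 22.8% higher. Roles hold few genes, so their counts here and below only describe which genes passed. Aurora kinase A (AURKA, ENSG00000087586), which matures centrosomes and drives spindle assembly, had 4004 and 4263 reads (187 and 194 CPM) in shFTO tables, against 5132 and 5281 reads (271 and 273 CPM) in scramble tables. It was 1.43-fold lower (1.39 to 1.47) in shFTO. The tables of the groups lay apart, as they did in the lower direction for 40.2% of all tested genes. TTK (ENSG00000112742), the kinase that starts the spindle checkpoint, had 416 and 424 reads (19.4 and 19.3 CPM) in shFTO tables, against 511 and 525 reads (27.0 and 27.2 CPM) in scramble tables. It was 1.40-fold lower (1.28 to 1.53). TTK is the only member on chromosome 6, where the median log2 ratio of 687 tested genes was -0.18. With the median of its chromosome subtracted, its log2 ratio was -0.30, against -0.48 without, which no longer passed the threshold. Aurora kinase B (AURKB, ENSG00000178999), the kinase of the chromosomal passenger complex, had 1482 and 1517 reads (69.2 and 69.1 CPM) in shFTO tables, against 1809 and 1784 reads (95.7 and 92.3 CPM) in scramble tables. It was 1.36-fold lower (1.29 to 1.43), again with no overlap of tables. BUB1, a checkpoint kinase that also marks centromeres, was 1.23-fold lower (1.18 to 1.28), short of the threshold.

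PLK1 stood apart from the other kinases. This Polo-like kinase, which acts from mitotic entry to cytokinesis, had 329 and 335 CPM in shFTO tables, against 335 and 333 CPM in scramble tables, so its tables overlapped. Its pooled level was 1.01-fold lower (0.982 to 1.03), an interval that includes 1. TPX2, the microtubule protein that activates AURKA on the spindle, had 478 and 475 CPM in shFTO tables, against 482 and 481 CPM in scramble tables, with an interval that also includes 1. The log2 ratio of AURKA minus that of TPX2 was -0.50 (counting interval -0.55 to -0.45), a difference beyond counting error. This pair and those below were chosen after their values were seen, so their intervals describe counting error and are no test.

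Among the cyclins, CDK1 and its switches, 2 of 8 genes were lower by the fold threshold, both of them CDC25 phosphatases. CDC25B (ENSG00000101224) had 2378 and 2334 reads (111 and 106 CPM) in shFTO tables, against 2924 and 3065 reads (155 and 159 CPM) in scramble tables. It was 1.44-fold lower (1.39 to 1.498). CDC25C (ENSG00000158402) had 349 and 375 reads (16.3 and 17.1 CPM) in shFTO tables, against 434 and 409 reads (23.0 and 21.2 CPM) in scramble tables. It was 1.32-fold lower (1.19 to 1.46). Neither gene's tables overlapped, and 40.2% of all tested genes were likewise lower without overlap. CDC25C shares 8.78% of its exon bases with FAM53C on the opposite strand, which had 1127 and 1143 reads in shFTO tables, against 856 and 867 reads in scramble tables. The strand setting of the counts is not given in the sources used here, so reads of such neighbours cannot be told apart.

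CDK1 itself was 1.14-fold lower (1.07 to 1.21). Its partner cyclin A2 (CCNA2) was 1.24-fold lower (1.19 to 1.29) and shares 9.08% of its exon bases with EXOSC9 on the opposite strand. Cyclin B2 (CCNB2) was 1.16-fold lower (1.105 to 1.23). CCNB1, the other mitotic B cyclin, had 268 and 265 CPM in shFTO tables, against 270 and 263 CPM in scramble tables, with overlapping tables. The log2 ratio of CCNB2 minus that of CCNB1 was -0.22 (counting interval -0.30 to -0.13). As a share of B cyclin reads per kilobase of exon, CCNB2 held 17.6% and 18.0% in shFTO tables and 19.6% and 20.6% in scramble tables.

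The CKS proteins, small adaptors that dock CDK complexes to phosphorylated substrates, had higher levels in shFTO, although neither reached the fold threshold. CKS1B had 122 and 122 CPM in shFTO tables, against 100.05 and 99.5 CPM in scramble tables. It was 1.22-fold higher (1.17 to 1.27). CKS2 had 111 and 114 CPM in shFTO tables, against 96.2 and 90.3 CPM in scramble tables. It was 1.21-fold higher (1.15 to 1.26), and the log2 ratio of CKS2 minus that of CKS1B was -0.02 (counting interval -0.11 to 0.07). The 7 named CKS1B copies in the tables held 0.033% as many reads as CKS1B, although reads that match several copies may have been dropped from each.

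**Figure D4:**
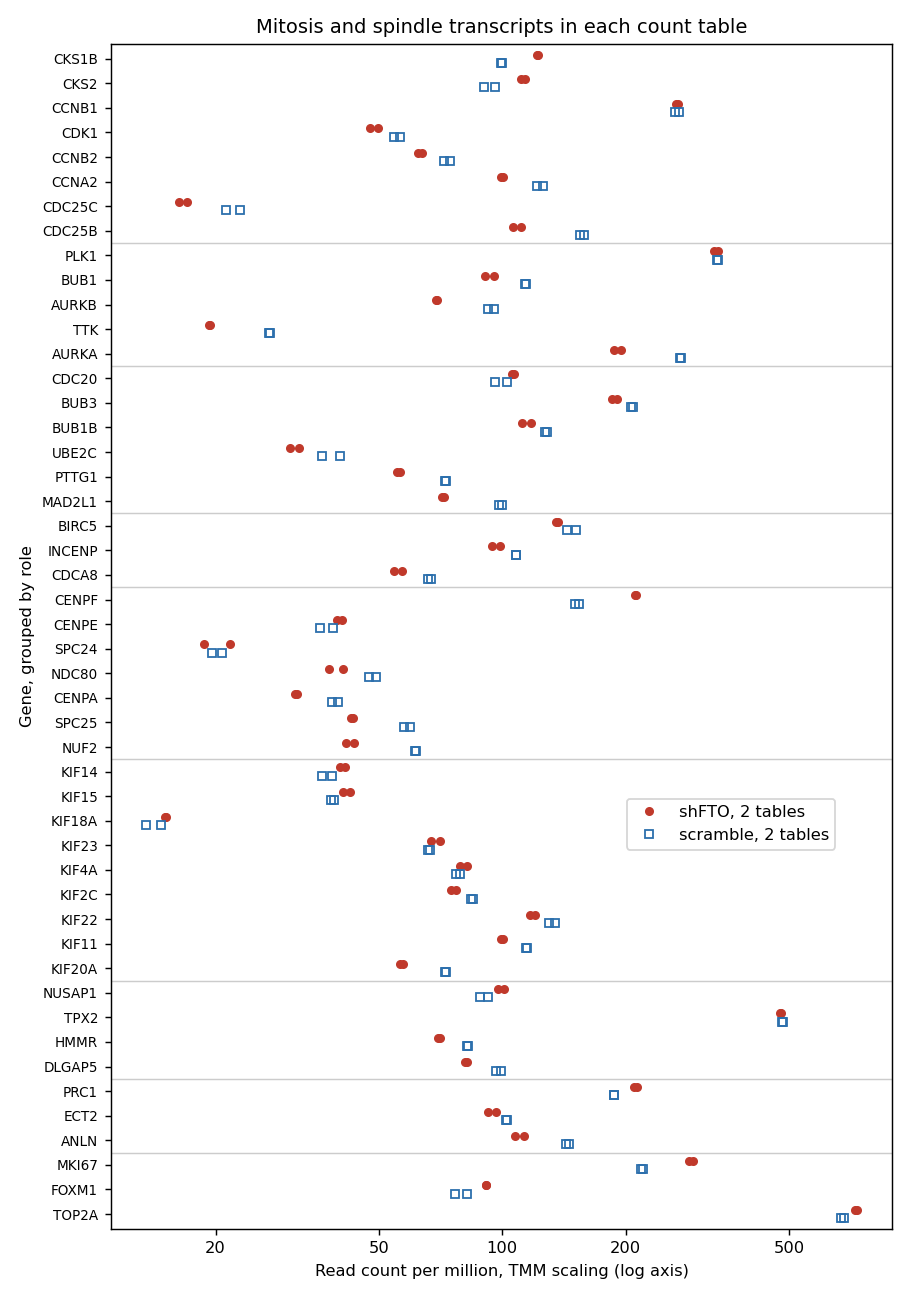
CPM with TMM scaling (horizontal log axis) of the 48 genes (vertical axis, grouped by role) in the 2 shFTO tables (filled red circles) and the 2 scramble tables (open blue squares). Tables of a group lie close together, and the groups overlap for CCNB1, PLK1, SPC24 and KIF4A.

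In the checkpoint and anaphase group 2 of 6 genes (33.3%) were lower by the fold threshold, against 24.0% of all tested genes. MAD2L1 (ENSG00000164109), which blocks CDC20 while kinetochores are unattached, had 1529 and 1579 reads (71.4 and 71.9 CPM) in shFTO tables, against 1860 and 1929 reads (98.4 and 99.8 CPM) in scramble tables. It was 1.38-fold lower (1.32 to 1.45). Securin (PTTG1, ENSG00000164611), which restrains the protease that opens cohesin, had 1207 and 1218 reads (56.4 and 55.5 CPM) in shFTO tables, against 1378 and 1403 reads (72.9 and 72.6 CPM) in scramble tables. It was 1.30-fold lower (1.23 to 1.37). The other members of the checkpoint complex were closer to scramble, BUB1B being 1.11-fold lower (1.07 to 1.16) and BUB3 1.104-fold lower (1.07 to 1.14).

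CDC20, the activator of the anaphase-promoting complex that MAD2L1 holds in check, had 106 and 107 CPM in shFTO tables, against 102 and 95.7 CPM in scramble tables. It was 1.07-fold higher (1.03 to 1.12). The log2 ratio of CDC20 minus that of MAD2L1 was 0.57 (counting interval 0.47 to 0.66). UBE2C, the ubiquitin-conjugating enzyme of the complex, was 1.23-fold lower (1.14 to 1.33). Its 5 named copies in the tables held 1.102% as many reads as the gene.

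All 4 genes of the chromosomal passenger complex, which corrects faulty attachments and guides cytokinesis, were lower in shFTO under TMM, but AURKB alone passed the fold threshold. Of all tested genes 24.0% passed it as lower. CDCA8 (borealin) was 1.20-fold lower (1.13 to 1.26), the scaffold INCENP 1.12-fold lower (1.07 to 1.17) and survivin (BIRC5) 1.09-fold lower (1.05 to 1.13). INCENP and BIRC5 changed sign with plain library size. The log2 ratio of AURKB minus that of BIRC5 was -0.32 (counting interval -0.41 to -0.24).

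Kinetochore and centromere genes held both the lowest and the highest ratio of the 48, with 2 of 7 lower and 1 higher. These shares (28.6% and 14.3%) compare with 24.0% and 22.8% of all tested genes. NUF2 (ENSG00000143228), a subunit of the NDC80 complex that grips microtubules, had 930 and 915 reads (43.4 and 41.7 CPM) in shFTO tables, against 1157 and 1194 reads (61.2 and 61.8 CPM) in scramble tables. It was 1.45-fold lower (1.36 to 1.54). SPC25 (ENSG00000152253), of the same complex, had 929 and 941 reads (43.4 and 42.9 CPM) in shFTO tables, against 1089 and 1154 reads (57.6 and 59.7 CPM) in scramble tables. It was 1.36-fold lower (1.28 to 1.45). NDC80 itself was 1.22-fold lower (1.15 to 1.31). SPC24, the remaining subunit, had 21.7 and 18.7 CPM in shFTO tables, against 20.8 and 19.6 CPM in scramble tables, with overlapping tables. The log2 ratio minus that of SPC24 was -0.53 (counting interval -0.70 to -0.37) for NUF2 and -0.44 (counting interval -0.61 to -0.28) for SPC25. Of the reads of the complex per kilobase, SPC24 held 14.0% and 12.3% in shFTO tables and 10.4% and 9.74% in scramble tables.

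CENPF (ENSG00000117724), a large protein of the outer kinetochore and nuclear matrix, had 4525 and 4619 reads (211 and 210 CPM) in shFTO tables, against 2850 and 2967 reads (151 and 154 CPM) in scramble tables. It was 1.39-fold higher (1.34 to 1.43), the highest ratio of the 48. CENPE, the kinetochore motor, was 1.08-fold higher (1.002 to 1.15), and the log2 ratio of CENPF minus that of CENPE was 0.37 (counting interval 0.25 to 0.48). CENPA, the histone variant that marks centromeres, had 31.7 and 31.2 CPM in shFTO tables, against 38.5 and 39.7 CPM in scramble tables. It lay just short of the threshold, and it shares 6.96% of its exon bases with SLC35F6 on the same strand.

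The kinesins, motors that move chromosomes and slide spindle microtubules, were mostly near scramble, with a median log2 ratio of 0.05. Past the fold threshold was 1 of 10 (CENPE included), against 46.8% of all tested genes in either direction. KIF20A (ENSG00000112984), a motor of the central spindle, had 1224 and 1240 reads (57.1 and 56.5 CPM) in shFTO tables, against 1371 and 1407 reads (72.5 and 72.8 CPM) in scramble tables. It was 1.28-fold lower (1.21 to 1.35). The pole-separating motor KIF11 was 1.15-fold lower (1.103 to 1.20), the chromosome arm motor KIF22 1.12-fold lower (1.07 to 1.16) and the microtubule depolymerase KIF2C 1.11-fold lower (1.06 to 1.16). KIF14 and KIF15 were 1.09-fold higher (1.02 to 1.17) and 1.08-fold higher (1.01 to 1.16). KIF18A, KIF23 and KIF4A were 1.07-fold higher, 1.04-fold higher and 1.03-fold higher, with counting intervals that include 1. KIF4B, a close copy of KIF4A, had 24 and 20 reads in shFTO tables, against 17 and 22 reads in scramble tables.

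Spindle assembly factors and cytokinesis genes were split. DLGAP5 and HMMR, which act on spindle microtubules, were 1.20-fold lower (1.14 to 1.26) and 1.17-fold lower (1.11 to 1.23), and NUSAP1, a microtubule bundler, was 1.099-fold higher (1.05 to 1.15). Anillin (ANLN, ENSG00000011426), the scaffold of the contractile ring, had 2295 and 2487 reads (107 and 113 CPM) in shFTO tables, against 2703 and 2809 reads (143 and 145 CPM) in scramble tables. It was 1.31-fold lower (1.26 to 1.36). PRC1, which bundles the central spindle, had 213 and 210 CPM in shFTO tables, against 187 and 187 CPM in scramble tables. It was 1.13-fold higher (1.096 to 1.17), while ECT2, the exchange factor that activates RhoA at the cell middle, was 1.09-fold lower (1.04 to 1.14). In GENCODE 29, PRC1 and NUSAP1 share 57.6% and 62.2% of their exon bases with another gene model on the same strand that has no line in these tables.

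The 3 genes of chromosome structure and proliferation were all higher in shFTO, 1 of them past the fold threshold. Of all tested genes 22.8% passed it as higher. MKI67 (ENSG00000148773), the Ki-67 protein that coats mitotic chromosomes and is a common marker of cycling cells, had 6256 and 6250 reads (292 and 285 CPM) in shFTO tables, against 4160 and 4219 reads (220 and 218 CPM) in scramble tables. It was 1.32-fold higher (1.28 to 1.35). TOP2A, the topoisomerase that untangles sister chromatids, was the most abundant member by CPM, with 724 and 732 CPM in shFTO tables, against 671 and 681 CPM in scramble tables. It was 1.08-fold higher (1.06 to 1.09). FOXM1, a transcription factor of many genes in this list, had 91.3 and 91.4 CPM in shFTO tables, against 76.6 and 82.1 CPM in scramble tables. It was 1.15-fold higher (1.097 to 1.21), and it shares 15.9% of its exon bases with ITFG2 on the opposite strand, which had 288 and 257 reads in shFTO tables, against 152 and 161 reads in scramble tables.

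The order of the 48 levels was nearly the same in both groups. Per kilobase of exon, CKS2, TPX2, TOP2A and CCNB1 had the highest levels in each group, at 183, 132, 113 and 104 CPM per kilobase in shFTO, against 152, 134, 105 and 104 in scramble. KIF18A was lowest, at 3.23 CPM per kilobase in shFTO and 3.03 in scramble. Spearman's rho between the groups was 0.965 over the 48 genes, as a description of libraries from 1 cell line. The largest moves in rank were those of MKI67 (rank 23 in shFTO, 36 in scramble) and CENPF (rank 30 in shFTO, 40 in scramble).

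Transcript length moved with the ratio. Over the 48 genes Spearman's rho between exon bases and the log2 ratio was 0.33, and 0.24 over the 46 genes without MKI67 and CENPF, the longest members. Over 12240 genes averaging 1 CPM or more it was 0.16. Spearman's rho between scramble CPM and the log2 ratio was -0.18 over the same 12240 genes and 0.145 over the 48 genes. The 4 members with 8000 exon bases or more had a median log2 ratio of 0.25, against 0.11 for tested genes of that length, and the 11 members with 2000 to under 3000 bases had -0.22, against -0.10. A trend in length, GC content and expression explained 2.55% of the variance over the 12240 genes. After this trend was removed, 6 members were higher and 5 lower by the fold threshold, against 22.5% and 20.8% of genes in that fit. The distance of the members' median from that of all genes in the fit was then -0.08. CDC25B, TTK, NUF2, MAD2L1 and CDC25C stayed past the threshold as lower and CENPF and MKI67 as higher. AURKA (-0.28), ANLN (-0.275), AURKB (-0.27), KIF20A (-0.25), SPC25 (-0.22) and PTTG1 (-0.19) stayed below 0 but not past it. The log2 ratios of CKS2 and CKS1B became 0.59 and 0.52.

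**Figure D5:**
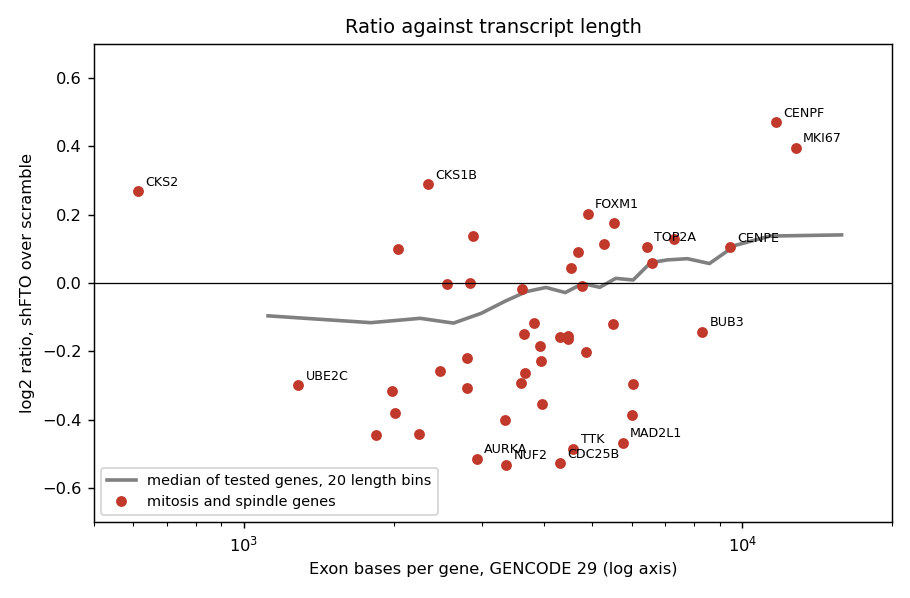
Log2 ratio of shFTO over scramble (vertical axis) against exon bases per gene in GENCODE 29 (horizontal log axis). Red points are the 48 genes and the grey line joins medians of tested genes in bins of length. MKI67 and CENPF, at 0.40 and 0.47, are the longest members, while CKS2, the shortest, is at 0.27, above the grey line.

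Other parts of the mitotic machinery were read from lists outside the 48 genes, by the same fold threshold and background. Of all tested genes 22.8% were higher and 24.0% lower. Of 17 genes of the anaphase-promoting complex and its regulators 3 were higher and 3 lower (median log2 ratio 0.13). The subunit ANAPC2 was 1.43-fold higher (1.33 to 1.53) and the subunit ANAPC10 1.46-fold lower (1.17 to 1.82), and UBE2S, which extends ubiquitin chains on the substrates of the complex, was 1.34-fold lower (1.28 to 1.40). Of 31 other kinetochore genes 3 were higher and 1 lower (median 0.10). SKA1, which helps the NDC80 complex hold microtubules, was 1.54-fold higher (1.39 to 1.71), the centromere DNA-binding protein CENPB 1.39-fold higher (1.33 to 1.45), and CENPQ, of the inner kinetochore, 1.52-fold lower (1.36 to 1.69). Of 20 condensin and cohesin genes 5 were higher and 1 lower (median 0.11). The cohesin ring subunit RAD21 was 1.29-fold lower (1.26 to 1.32), and PDS5A, a regulator of cohesin, 1.40-fold higher (1.35 to 1.45).

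Of 26 spindle and centrosome genes 4 were higher and 3 lower (median 0.06), again beside 22.8% and 24.0% of all tested genes. PLK4, the kinase that starts centriole duplication, was 1.58-fold lower (1.47 to 1.71), CKAP2L 1.54-fold lower (1.41 to 1.68) and the minus-end motor KIFC1 1.29-fold lower (1.23 to 1.35). The centriole protein CEP152, which recruits PLK4, was 1.43-fold higher (1.26 to 1.63). Of 20 tested genes of G2 to M control 0 were higher and 4 lower (median -0.10, or 0.07 with plain library size). CCNB1IP1, an E3 ligase that targets cyclin B, was 1.78-fold lower (1.67 to 1.90). NEK2, a kinase that splits centrosomes, was 1.57-fold lower (1.47 to 1.68), and CHEK2, a DNA damage checkpoint kinase, 1.75-fold lower (1.64 to 1.87). WEE1, which puts on the phosphates that CDC25 removes, was 1.21-fold lower (1.13 to 1.29), short of the threshold. Of 15 tested cytokinesis genes 1, PLK2, was higher and 0 lower (median -0.03, or 0.13 with plain library size), PLK2 being 1.82-fold higher (1.58 to 2.097).

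Among MuvB, DREAM and E2F genes, which act on such promoters, 11 of 27 were higher (40.7%) and 2 lower (7.41%), with a median of 0.30. Of all tested genes 22.8% were higher and 24.0% lower. CDKN1A, the CDK inhibitor p21, had 3845 and 4147 reads in shFTO tables, against 1779 and 1821 reads in scramble tables, and was 1.96-fold higher (1.88 to 2.04). E2F7, a repressor of E2F targets, was 1.79-fold higher (1.62 to 1.98). B-MYB (MYBL2) was 1.252-fold higher (1.22 to 1.28), and LIN54, the MuvB subunit that binds the CHR, was 1.69-fold lower (1.57 to 1.82). LIN37, the other gene past the threshold, had 11 and 17 reads in shFTO tables, against 13 and 18 reads in scramble tables, and its counting interval includes 1.

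DNA replication genes lay on the other side of the median of all tested genes. Of 34 listed genes 33 were matched and tested. Of these 9 were higher (27.3%) and 2 lower (6.06%), against 22.8% and 24.0% of all tested genes. The median log2 ratio of the list was 0.23. MCM5 and MCM4, subunits of the replicative helicase, were 1.78-fold higher (1.71 to 1.86) and 1.53-fold higher (1.48 to 1.58), and RFC3, a clamp loader subunit, was 1.57-fold lower (1.46 to 1.68). With 1 sample a group, the difference between the lists has no test.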

How the data were processed

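RNA was measured in Hep-G2 cells with an shRNA against FTO or a scramble shRNA, in 2 tables a group, grouped and numbered by their titles. The authors deposited raw counts of reads per Ensembl identifier. TopHat2 2.1.1, HTSeq 0.6.0 and build hg19 are named per the submitters' processing notes, and the strand setting is not given in the sources used here.

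Symbols came from GENCODE 29 and a gene name table (51537 of 62893 identifiers). GENCODE 29 is of another build and served by identifier, for exon lengths merged over the transcripts of a gene and for GC content of the longest transcript. Tables within a group were set against each other with a chi-square test and then pooled. Ratios are of pooled CPM with TMM scaling (edgeR 4.0.16, R 4.3.3) over the 13767 genes that filterByExpr kept, with exact 95% Clopper-Pearson intervals, which cover counting error only. Intervals of differences between log2 ratios use the counting standard error. No test was made between the conditions. The edgeR quasi-likelihood and DESeq2 1.42.0 tests compare libraries and served as alternatives, beside other scalings, filters, thresholds, a quadratic trend in length, GC and level, and tables left out. The calculation was tested on simulated data.

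The 48 genes, the pathway lists and the threshold were chosen with earlier results of these data known. Every member is named, those past the threshold with reads, and of each list up to 3 genes furthest past it each way. WEE1, MYBL2 and the pairs of genes compared were chosen after their values were seen.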

Additional observations from a re-analysis of the deposited data

How the results depend on the processing

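Under TMM 2 members were higher and 11 lower by the fold threshold, with a median log2 ratio of -0.16. With plain library size these were 6, 3 and 0.011, and with the length, GC and expression trend removed 6, 5 and -0.045. Upper quartile scaling gave a median of -0.11, and subtracting the chromosome median, an alternative chosen after seeing the data, -0.18. At 1.5-fold the counts were 0 and 0, and at 1.1-fold 6 and 27 (37.9% and 37.0% of all tested genes). Leaving out each table in turn gave 2 higher each time, 12 to 13 lower and medians from -0.17 to -0.15. With DESeq2 scaling and both other filters on low counts the counts stayed within 1.5 times of these.

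The edgeR quasi-likelihood test at an adjusted p under 0.05, which compares libraries and not conditions, called 11 members higher and 29 lower without the replicate block (33.2% and 33.4% of all tested genes) and 11 and 29 with the replicate block (33.5% and 33.5%). DESeq2 called 8 and 29 (23.7% and 26.3%). Over genes with at least 20 reads in either table, a filter that favours genes that differ, the chi-square per degree of freedom was 1.03 between the shFTO tables (p = 0.0204) and 1.03 between the scramble tables (p = 0.00951). Counting error limits KIF18A, CDC25C, SPC24 and TTK most.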

Other observations

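Kinesin genes outside the 48 were picked by symbol after the data were seen. Of 26 tested, 9 were higher in shFTO and 3 lower by the fold threshold, with a median log2 ratio of 0.13. These shares (34.6% and 11.5%) compare with 22.8% and 24.0% of all tested genes. KIF18B, a motor that shortens microtubules, had 1379 and 1459 reads in shFTO tables, against 911 and 926 reads in scramble tables, and was 1.36-fold higher (1.28 to 1.45). KIF7, a ciliary regulator of Hedgehog signalling, was 1.53-fold higher (1.38 to 1.70). KIF5A, a neuronal transport motor, had 64 and 77 reads in shFTO tables, against 214 and 256 reads in scramble tables, and was 3.78-fold lower (3.13 to 4.597).

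Of 16 tested tubulin genes, chosen in the same way, 2 were higher and 6 lower, with a median of -0.19, which is -0.02 with plain library size. The shares (12.5% and 37.5%) compare with 22.8% and 24.0% of all tested genes. The abundant beta tubulin TUBB had 44908 and 45842 reads in shFTO tables, against 43389 and 44428 reads in scramble tables, and was 1.098-fold lower (1.09 to 1.11). TUBB1, known from platelets, had 65 and 72 reads in shFTO tables, against 638 and 587 reads in scramble tables, and was 10.1-fold lower (8.495 to 12.2). TUBB2A was 2.31-fold lower (2.08 to 2.57), while TUBA1A was 2.62-fold higher (2.30 to 2.99). Tubulin genes are alike in sequence, so reads may be split between them or dropped.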
